A study of Mus musculus with 14 samples.

Results

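The genes described here were 37 named DNA repair genes, taken as every probe whose platform symbol matched 1 of the names, with the brightest probe standing for each gene. Of these, 34 had a probe, among 16593 genes with a probe of 1 symbol on the array. Xrcc2, Atr and Fanca had none and were not analysed here. Their transcripts were measured on 14 one-colour Illumina mouse BeadChips in total RNA from oocytes at the germinal vesicle (GV) stage, held in prophase of the first meiotic division with the nuclear envelope intact. All oocytes carried, at Rosa26, a transgene of human Ago2 with myc and GFP tags that a lox-stop-lox cassette keeps silent. In the Cre-positive group (4 samples) Zp3-Cre, driven by a promoter active in growing oocytes, removes that stop, and in the Cre-negative group (4 samples) there was no Cre. A second set held 3 Cre-positive and 3 Cre-negative samples injected with 2 µM miR-15a mimic, a synthetic form of that microRNA.

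Mice in all groups had received 5 units of PMSG, a gonadotropin that stimulates follicle growth, 48 h before injection, and the medium contained 2 µM milrinone, which keeps oocytes from resuming meiosis. Strain and age were not given in the sources used here, nor what the oocytes without mimic received. No group carried Cre without the transgene, so Cre and AGO2 cannot be told apart. The arrays with mimic formed a signal table of their own, normalized separately, so levels were compared inside a table only. Whether each sample was an animal of its own or a pool was not stated. The p-values thus reflect how far these samples spread, which may be technical. In bulk RNA, fewer cells of a type and less RNA per cell cannot be told apart.

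Cells repair breaks of both DNA strands either by homologous recombination, which copies an intact duplex, or by end joining, which ligates the ends. Base excision repair removes damaged bases, mismatch repair removes replication errors, and some relatives of the mismatch proteins serve meiotic crossovers instead. A GV oocyte has completed meiotic recombination but stores transcripts, repair transcripts among them, for meiotic maturation and for the embryo before its own genome is active.

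The microRNA given to the second set corresponds by name to the mature strand printed here with its seed (bases 2 to 8), through which a microRNA chiefly pairs with its targets, in capitals. It is RefSeq's entry on GRCm38.p6 at chr14:61632075-61632096, minus strand. The sequence of the mimic itself was not given in the sources used here.
mmu-miR-15a-5p: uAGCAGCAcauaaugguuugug

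Most repair genes were detected in GV oocytes. Probes were tested if detected (detection p-value under 0.05) on at least 4 arrays without mimic or at least 3 with mimic, the size of the smaller group. By that filter 32 of the 34 genes passed in each table, which is 94.1%, against 52.6% of all genes with a probe without mimic and 54.4% with mimic. Without mimic, 28 of the 34 were detected on every array (82.4%, against 43.7% of all genes), and with mimic 31 were (91.2%, against 48% of all genes). The same 28 genes were detected on every array of both tables, and 31 of the 32 tested genes used the same probe in both. Atm, the kinase that signals breaks of both strands, used different probes in the tables.

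Brip1 and Msh5 did not pass in either table. Brip1, a helicase of the Fanconi pathway, was detected on 0 arrays, with log2 signals of 4.16, 4.14, 4.14 and 4.19 in Cre-positive and 4.17, 4.14, 4.27 and 4.25 in Cre-negative oocytes without mimic. The lowest signal of a detected probe lay between 4.35 and 4.53 on these arrays, so all Brip1 values were below it. Msh5, whose protein pairs with MSH4 at meiotic crossovers, was detected on 0 of 4 Cre-positive and 1 of 4 Cre-negative arrays without mimic. With mimic Msh5 was brightest on another probe, and was detected there on 1 of 3 arrays of each group. Its partner Msh4 was detected on every array of both tables. Signals of different probes are not set against each other, since probes differ in brightness for the same amount of RNA.

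**Figure D1:**
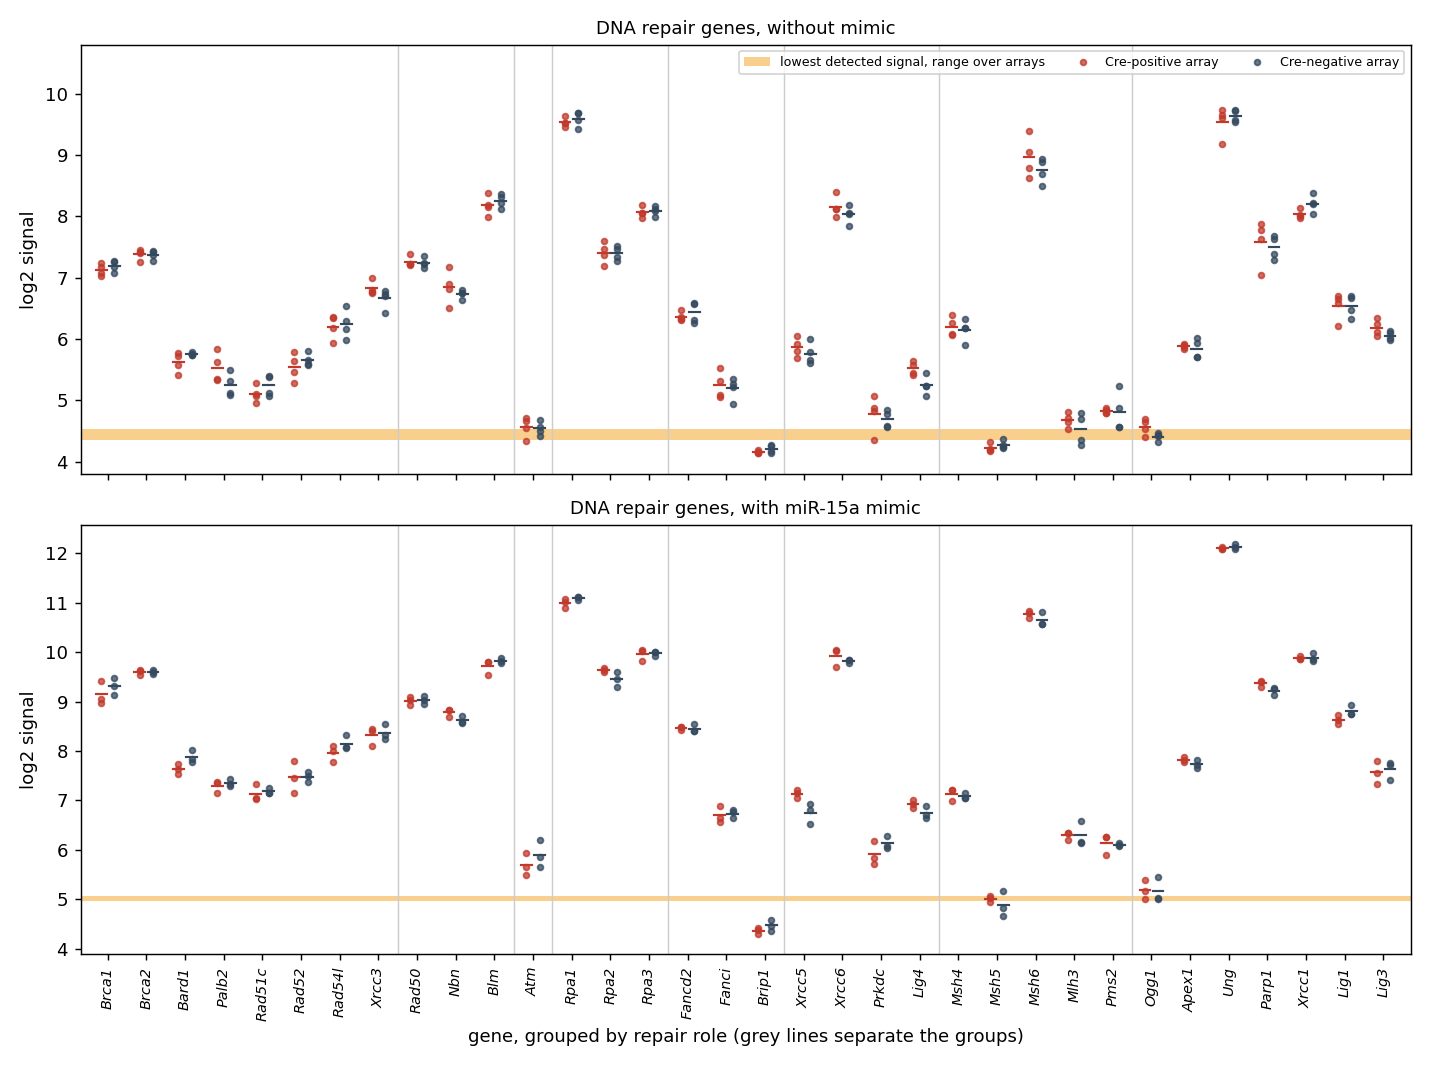
Log2 signal (vertical axis) of the 34 DNA repair genes with a probe (horizontal axis, grouped by role), without mimic above and with miR-15a mimic below. Points are arrays, Cre-positive left of Cre-negative, short bars are group means, and the shaded band spans the lowest detected signal of the arrays (4.35 to 4.53 without mimic). Brip1 lies under the band in both panels, and most other genes lie above it.

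A letter pattern was searched for in the promoters of these genes. Of the 37 genes, 32 had a promoter in RefSeq's table for GRCm38.p6, which takes 250 bases before to 50 after each annotated start. These were not the same genes as those tested on the arrays. They included Atr and Fanca, without a probe, and Brip1 and Msh5, which did not pass the filter. The tested genes Fancd2, Nbn, Rad50 and Prkdc had no promoter there. The pattern searched was the E2F-type octamer in the forms TTTCCCGC, TTTCGCGC, TTTGCCGC and TTTGGCGC, on both strands, E2F being the factor family known for driving S-phase genes. No other motif was searched for. It was present in 8 of 38 promoters of these genes (21.1%), against 3.9% of promoters of genes tested without mimic and 2.26% of all 32851 promoters. The 7 genes with it were Bard1, Brca2, Lig1, Msh5, Msh6, Rad51c and Xrcc6. CpG density moved with the groups of promoters. The median number of CpG in 300 bases was 22.5 for these genes, 20 for genes tested without mimic and 7 for all promoters, and its part in the share was not tested. A match is a description of letters, not evidence of binding.

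Bard1, detected on every array, and Msh5, detected on almost none, are printed because both carry 1 match, shown in capitals. The Bard1 window is chr1:71102923-71103222, minus strand, and its match starts 209 bases before the annotated start. The Msh5 window is chr17:35046573-35046872, minus strand, with the reverse complement of the same octamer 65 bases before the start.
Bard1: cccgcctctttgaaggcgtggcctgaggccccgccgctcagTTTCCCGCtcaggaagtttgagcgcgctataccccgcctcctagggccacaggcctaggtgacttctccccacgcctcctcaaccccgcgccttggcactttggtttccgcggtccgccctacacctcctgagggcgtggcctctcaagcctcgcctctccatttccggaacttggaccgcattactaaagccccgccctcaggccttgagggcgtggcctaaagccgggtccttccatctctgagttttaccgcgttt
Msh5: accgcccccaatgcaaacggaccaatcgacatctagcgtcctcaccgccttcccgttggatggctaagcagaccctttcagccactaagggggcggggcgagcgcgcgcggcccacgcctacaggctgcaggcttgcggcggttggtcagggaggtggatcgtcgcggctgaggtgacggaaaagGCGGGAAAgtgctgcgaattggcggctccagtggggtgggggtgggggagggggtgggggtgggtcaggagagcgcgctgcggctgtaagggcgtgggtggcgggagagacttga

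The arrays differed in depth between the tables and less within them. Mean raw signal was 118 to 151 units without mimic and 339 to 380 with mimic, and 11652 to 13619 and 13129 to 13715 of the 25697 probes were detected. Cre-positive replicate 1 had the fewest detected probes. Cre-positive replicate 4 stood apart, with a median correlation with the other arrays of its table of 0.977, where those had 0.986 to 0.989, and it held the lowest value of its group for 13 of the 32 tested repair genes. The Ago2 probe, which checks the labels as far as it also reads the transgene, had log2 signals of 6.76 to 6.98 in Cre-positive and 4.63 to 5.06 in Cre-negative oocytes without mimic, and of 8.33 to 8.53 and 5.91 to 6.24 with mimic. All 15 oocyte markers with a probe passed the detection filter in both tables. Among markers of other cells, 4 of 17 for granulosa and cumulus cells passed without mimic and 6 with mimic. For theca and stroma 1 of 10 passed in each table, and for blood and immune cells 1 of 6. The summed granulosa and cumulus signal was 176 to 223 in Cre-positive and 160 to 182 in Cre-negative oocytes without mimic, and 626 to 706 and 585 to 635 with mimic. Its part in the values below was not tested.

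The first comparison asked whether repair transcripts differed between Cre-positive and Cre-negative oocytes without mimic. None of the 32 tested repair genes passed an adjusted p of 0.05 in limma (two-sided, Benjamini-Hochberg over 9546 features), where 0.0419% of all features did, 2 higher and 2 lower. The smallest adjusted p of a repair gene in limma was 0.948. At an unadjusted p under 0.05 there were 2 of 32, Lig4 and Palb2, against 4.67% of all features. Log2 differences, Cre-positive minus Cre-negative, ran between -0.17 and 0.28, and their median was 0.02, against -0.01 over all features. For 20 genes the difference lay above 0 and for 12 below, where 47.8% of all features lay above. Under median scaling of the arrays that split was 12 above and 20 below, with a median of -0.04 beside -0.07 over all features, and without Cre-positive replicate 3 the median was -0.01. Without Cre-positive replicate 4, the array that stood apart, 4 features and 0 repair genes were called and the median was 0.04. The groups overlapped for all 32 genes, where 1.08% of all features had every Cre-positive array higher and 1.83% had every one lower.

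With mimic the same question gave 0 calls among 32 repair genes, where 0.132% of 9883 features passed, 2 higher and 11 lower in limma. The smallest adjusted p of a repair gene in limma was 0.52, and at an unadjusted p under 0.05 there was 1 of 32, Xrcc5, against 7.5% of all features. Differences ran between -0.24 and 0.38 with a median of -0.01, against 0.00 over all features. They lay above 0 for 13 genes and below 0 for 19, where 50.5% of all features lay above. Without Cre-positive replicate 3 of this set 20 genes lay above 0 and 13 below, with a median of 0.02. In 3 genes, Rpa2, Xrcc5 and Parp1, every Cre-positive array was higher, against 6.36% of all features. In 2 genes, Bard1 and Lig1, every Cre-positive array was lower, against 6.25% of all features. These shares of 32 are near those of the array. With 3 arrays a group the exact permutation test cannot go below 0.1.

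The precision limits how large a difference could have been missed. All 32 repair genes had 95% intervals inside 1 log2 unit either way in each table, and 29 had them inside 0.5. The widest bound was 0.55 for Palb2 without mimic, a 1.47-fold difference, and 0.67 for Xrcc5 with mimic, a 1.59-fold difference. The SD within groups was taken after limma's moderation, which draws the SD of every feature toward a common value. Its median over the repair genes was 0.159 without mimic, against 0.163 over all features, and 0.128 with mimic, against 0.144. Spread before moderation was not compared. Background and offset shrink the differences of dim probes, so these bounds are on the scale of the processed signal.

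**Figure D2:**
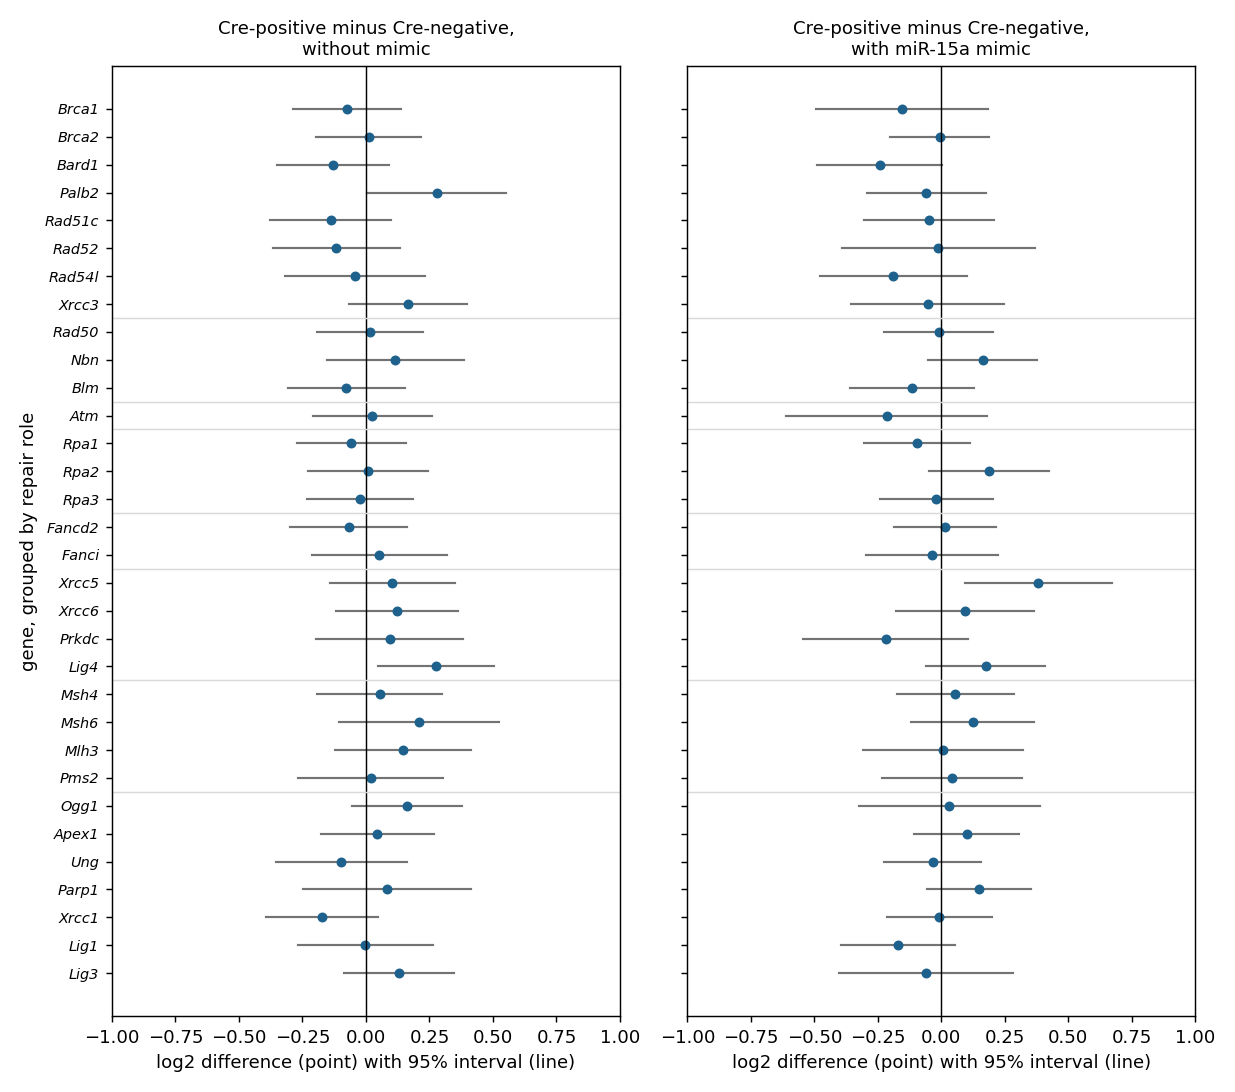
Log2 difference, Cre-positive minus Cre-negative (points), with 95% intervals from limma (lines), for the 32 repair genes tested in both tables, without mimic on the left and with miR-15a mimic on the right. All intervals stay inside 1 log2 unit, and those of Lig4 and Palb2 without mimic and Xrcc5 with mimic lie wholly above 0.

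Homologous recombination was the largest role group, with 8 of 9 genes measured, and all 8 were detected on every array of both tables. Without mimic 3 lay above and 5 below 0, and with mimic 0 above and 8 below, none past the threshold. That split with mimic rested on the arrays used. It was 4 above and 4 below without Cre-positive replicate 3, 2 above and 6 below without Cre-negative replicate 1 or with array weights, and 1 above and 7 below without Cre-positive replicate 2 or Cre-negative replicate 2, or with the mean over probes. Without mimic, leaving out 1 array gave 2 to 4 above 0.

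Brca1 and Brca2 overlapped between the groups in both tables. Brca1, whose protein with BARD1 forms a ubiquitin ligase that promotes recombination, had 7.02, 7.23, 7.17 and 7.07 in Cre-positive and 7.26, 7.18, 7.08 and 7.27 in Cre-negative oocytes without mimic, a difference of -0.07 ± 0.100 (SE). Brca2, which is needed for homologous recombination, had 7.41, 7.41, 7.26 and 7.44 in Cre-positive and 7.41, 7.36, 7.27 and 7.43 in Cre-negative oocytes, a difference of 0.01 ± 0.0977 (SE). With mimic Brca1 had 9.06, 8.98 and 9.41 in Cre-positive and 9.32, 9.12 and 9.47 in Cre-negative oocytes, at -0.16 ± 0.145 (SE; limma adjusted p = 0.856), and -0.29 to -0.07 when 1 array was left out. Brca2 lay at -0.01 ± 0.0831 with mimic (SE).

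Bard1 had the lowest difference of the repair genes with mimic. Its log2 signal was 7.74, 7.53 and 7.64 in Cre-positive and 7.83, 8.02 and 7.78 in Cre-negative oocytes. Every Cre-positive array was lower, by -0.24 ± 0.105 in log2 (SE; 1.18-fold lower; adjusted p = 0.67 in limma; exact permutation p = 0.1, the smallest possible). Without mimic the values were 5.42, 5.58, 5.78 and 5.73 in Cre-positive and 5.79, 5.74, 5.76 and 5.73 in Cre-negative oocytes. Cre-positive replicates 1 and 2 were the lowest. Replicate 4 lay only just under the Cre-negative arrays (5.7293 against 5.7349), and replicate 3 inside their range. The difference was -0.13 ± 0.105 (SE; limma adjusted p = 0.948). The 95% interval of the difference with mimic ran between -0.49 and 0.00.

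Palb2, which bridges BRCA1 and BRCA2, lay above 0 without mimic and near 0 with mimic. Without mimic it had 5.62, 5.34, 5.34 and 5.83 in Cre-positive and 5.12, 5.49, 5.32 and 5.09 in Cre-negative oocytes. Cre-positive replicates 1 and 4 were above all Cre-negative arrays and the other two were inside their range, a difference of 0.28 ± 0.130 (SE; limma adjusted p = 0.948; exact permutation p = 0.114). Without Cre-positive replicate 4 the difference was 0.18. With mimic it had 7.38, 7.14 and 7.36 in Cre-positive and 7.33, 7.43 and 7.30 in Cre-negative oocytes, and the groups overlapped at -0.06 ± 0.101 (SE), or -0.10 to 0.02 when 1 array was left out.

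Rad51c and Xrcc3, whose proteins form a complex in recombination, did not lean the same way without mimic. Rad51c had 5.10, 5.29, 5.07 and 4.96 in Cre-positive and 5.12, 5.38, 5.40 and 5.07 in Cre-negative oocytes, a difference of -0.14 ± 0.113 (SE). Xrcc3 had 6.99, 6.80, 6.77 and 6.75 in Cre-positive and 6.70, 6.43, 6.78 and 6.74 in Cre-negative oocytes, a difference of 0.17 ± 0.109 (SE). Both overlapped between the groups, at a limma adjusted p of 0.948 for each. With mimic their differences were -0.05 ± 0.109 for Rad51c and -0.05 ± 0.129 for Xrcc3 (SE).

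Rad52 and Rad54l also act in recombination, the first by annealing DNA and the second as a motor that moves along it. Rad52 had 5.46, 5.64, 5.79 and 5.27 in Cre-positive and 5.66, 5.81, 5.57 and 5.59 in Cre-negative oocytes without mimic, a difference of -0.12 ± 0.119 (SE; limma adjusted p = 0.954), and -0.03 without Cre-positive replicate 4. Cre-positive replicates 1 and 4 lay below all Cre-negative arrays and the other two inside their range. Rad54l with mimic had 8.0, 8.10 and 7.77 in Cre-positive and 8.32, 8.07 and 8.05 in Cre-negative oocytes, which overlapped through Cre-positive replicate 2, at -0.19 ± 0.124 (SE; limma adjusted p = 0.786).

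Nbn and Rad50 encode parts of the complex that senses and trims broken ends, and Blm a helicase that dissolves recombination intermediates. Nbn with mimic had 8.84, 8.69 and 8.82 in Cre-positive and 8.71, 8.56 and 8.60 in Cre-negative oocytes, at 0.16 ± 0.0918 (SE; limma adjusted p = 0.76). Its ranges overlapped only between the lowest Cre-positive and the highest Cre-negative array. Without mimic its Cre-positive arrays ran between 6.50 and 7.18, around all of the Cre-negative arrays. Blm differed by -0.08 ± 0.108 without and -0.12 ± 0.104 with mimic (SE), with overlap in each.

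Rad50 gave different values on its 3 probes, as seen after its values were examined. The brightest lay at 0.02 without mimic, with overlap. The other two had every Cre-positive array higher, with group means of 7.11 in Cre-positive and 6.80 in Cre-negative oocytes for the first (0.30 ± 0.106, SE), and of 7.07 and 6.84 for the second (0.23 ± 0.106, SE). When every probe was tested, 13080 in all, both had a limma adjusted p of 0.956. The share of all probes with every Cre-positive array higher was not counted in either table. Among features at their brightest probe it was 1.08% without and 6.36% with mimic. With mimic the same probes lay at 0.01 and -0.05, with overlap. Across the 13 genes with 2 or more passing probes, probes of a gene differed by at most 0.32 in this log2 difference without mimic, for Lig1, and 0.43 with mimic, for Parp1. Probes of opposite sign were found in 8 of the 13 genes without mimic and in 7 with mimic. Lig1 had 1 dimmer probe with every Cre-positive array higher without mimic, at 0.22 ± 0.0996 (SE; limma adjusted p = 0.956 with every probe tested).

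Atm was near the detection limit without mimic, on 3 of 4 Cre-positive and 4 of 4 Cre-negative arrays, and its difference was 0.03 ± 0.111 (SE). On the other probe, used with mimic, it had 5.65, 5.93 and 5.49 in Cre-positive and 6.21, 5.66 and 5.85 in Cre-negative oocytes. These overlapped, at -0.21 ± 0.170 (SE; limma adjusted p = 0.83). Without mimic that probe had group means of 4.58 in Cre-positive and 4.45 in Cre-negative oocytes (0.13 ± 0.123, SE), with overlap.

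Rpa1, Rpa2 and Rpa3 encode the subunits of the protein that coats single-stranded DNA. Rpa2 with mimic had 9.60, 9.64 and 9.68 in Cre-positive and 9.30, 9.46 and 9.59 in Cre-negative oocytes. Every Cre-positive array was higher, at 0.19 ± 0.101 (SE; limma adjusted p = 0.75; exact permutation p = 0.1). The separation rested on the brightest probe of Rpa2, since the other lay at 0.065 ± 0.153 (SE), with overlap. Without mimic it had 7.60, 7.36, 7.46 and 7.18 in Cre-positive and 7.27, 7.46, 7.51 and 7.34 in Cre-negative oocytes, which overlapped at 0.01 ± 0.112 (SE). The other two subunits lay below 0 in both tables, Rpa1 at -0.06 and -0.10 and Rpa3 at -0.02 and -0.02, all with overlap.

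Fancd2 and Fanci encode the pair of proteins that is ubiquitinated at crosslinks between DNA strands. Fancd2 differed by -0.07 ± 0.108 without and 0.01 ± 0.0860 with mimic, and Fanci by 0.05 ± 0.126 without and -0.04 ± 0.111 with mimic (SE). Both were detected on every array and overlapped between the groups in each table.

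All 4 end-joining genes lay above 0 without mimic and 3 of 4 with mimic, none past the threshold. The first count was the same under median scaling and was 3 of 4 without Cre-positive replicate 3. The second was 2 of 4 with the mean over probes. Lig4, the ligase that seals the joined ends, had the smallest p of the repair genes without mimic. It had 5.58, 5.63, 5.42 and 5.45 in Cre-positive and 5.24, 5.24, 5.06 and 5.44 in Cre-negative oocytes. Cre-negative replicate 4 lay inside the Cre-positive range and the other three below it. The difference was 0.27 ± 0.108 (SE; 95% interval 0.05 to 0.50; 1.21-fold), with an adjusted p of 0.948 in limma and an exact permutation p of 0.0571. Without Cre-positive replicate 4 it was 0.30. With mimic Lig4 had 6.93, 6.85 and 7.0 in Cre-positive and 6.71, 6.65 and 6.90 in Cre-negative oocytes, again with 1 Cre-negative array inside the Cre-positive range, at 0.17 ± 0.101 (SE; limma adjusted p = 0.761).

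Xrcc5 and Xrcc6 encode the Ku subunits that bind broken ends, and Prkdc the kinase that Ku recruits. Xrcc5 had 7.21, 7.04 and 7.15 in Cre-positive and 6.52, 6.80 and 6.94 in Cre-negative oocytes with mimic, so that every Cre-positive array was higher. Its difference was the highest of the repair genes, 0.38 ± 0.124 (SE; 95% interval 0.09 to 0.67; 1.3-fold), with an adjusted p of 0.52 in limma and an exact permutation p of 0.1. Without mimic it had 5.81, 5.68, 6.05 and 5.92 in Cre-positive and 5.78, 6.0, 5.66 and 5.60 in Cre-negative oocytes, which overlapped at 0.10 ± 0.116 (SE). Xrcc6, the partner subunit, differed by 0.12 ± 0.114 without and 0.09 ± 0.116 with mimic (SE), with overlap.

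Prkdc had 4.83, 4.87, 5.07 and 4.36 in Cre-positive and 4.78, 4.84, 4.57 and 4.56 in Cre-negative oocytes without mimic, at 0.09 ± 0.137 (SE), or -0.0039 to 0.23 when 1 array was left out, with Cre-positive replicate 4 the low array and not detected there. With mimic it had 5.72, 5.84 and 6.18 in Cre-positive and 6.29, 6.04 and 6.07 in Cre-negative oocytes. Cre-positive replicate 3 lay inside the Cre-negative range and the other two below it, at -0.22 ± 0.139 (SE; limma adjusted p = 0.785).

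**Figure D3:**
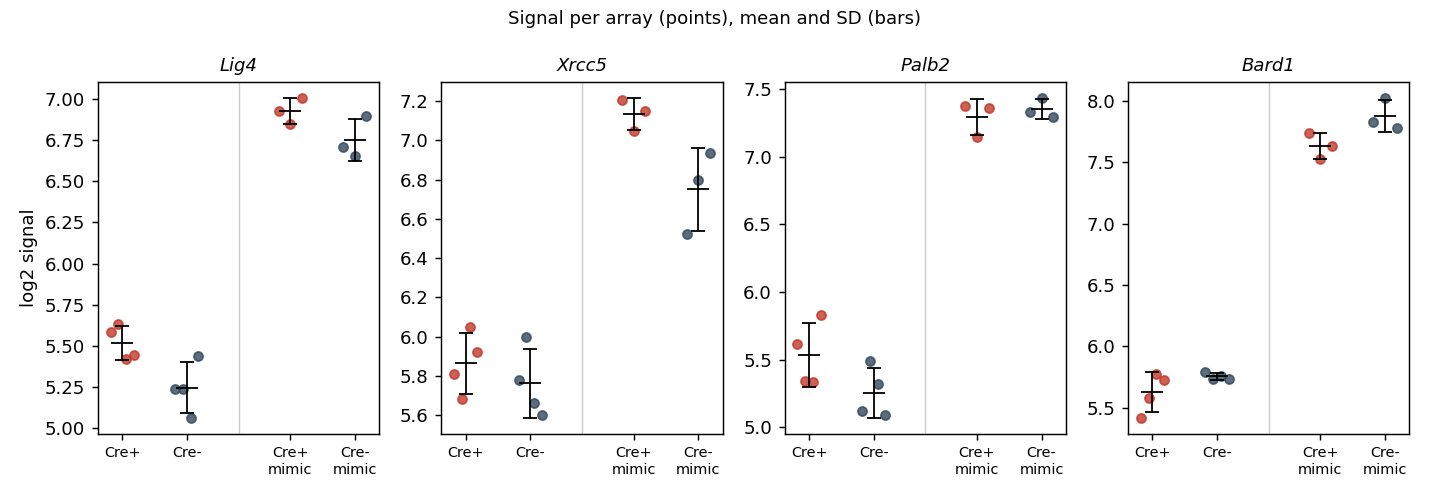
Log2 signal of Lig4, Xrcc5, Palb2 and Bard1 on each array (points), with group mean and SD (bars), Cre-positive left of Cre-negative, without mimic and then with miR-15a mimic. The vertical axes differ and do not start at 0, and the tables were normalized separately. Xrcc5 and Bard1 separate the groups with mimic (Xrcc5 7.04 to 7.21 in Cre-positive and 6.52 to 6.94 in Cre-negative oocytes), and Lig4 and Palb2 overlap in both tables.

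The 4 tested mismatch and crossover genes lay above 0 in both tables, and 2 of 4 did under median scaling in each. Without mimic it was 3 of 4 without Cre-positive replicate 3 or Cre-negative replicate 1, 3 or 4. With mimic it was 3 of 4 without Cre-negative replicate 2, with array weights, without background correction and with either deposited table. Leaving out Cre-positive replicate 1 or 3 let Msh5 pass the filter and gave 3 of 5 above 0, and leaving out Cre-negative replicate 1 gave 4 of 5. Msh6, a gene of mismatch recognition, differed by 0.21 ± 0.149 without and 0.12 ± 0.104 with mimic (SE). Its other probe lay at 0.22 ± 0.163 without mimic (SE), with overlap. With mimic that probe had every Cre-positive array higher, at 0.17 ± 0.093 (SE; limma adjusted p = 0.773 with every probe tested). Msh4 differed by 0.05 ± 0.117 and 0.06 ± 0.0985 (SE). Mlh3, which acts in meiotic crossovers, was near the detection limit without mimic, on 3 of 4 Cre-positive and 2 of 4 Cre-negative arrays, and differed by 0.14 ± 0.126 (SE). With mimic Mlh3 lay at 0.006 ± 0.135 (SE), and its sign changed under 9 of 19 alternative settings. Pms2, a mismatch endonuclease subunit, differed by 0.02 ± 0.135 without and 0.04 ± 0.118 with mimic (SE). On their brightest probes all of them overlapped between the groups.

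Of the 7 genes of base excision and nick repair, 4 lay above 0 without mimic and 3 with mimic. Without mimic it was 2 of 7 under median scaling and 6 of 7 without Cre-positive replicate 4, and with mimic 5 of 7 without Cre-positive replicate 3 and 2 of 7 without Cre-negative replicate 1. Ogg1, the glycosylase for oxidised guanine, was dim, and detected on 4 of 4 Cre-positive and 3 of 4 Cre-negative arrays without mimic. It had 4.70, 4.64, 4.40 and 4.54 in Cre-positive and 4.47, 4.41, 4.43 and 4.32 in Cre-negative oocytes. Cre-positive replicate 3 lay inside the Cre-negative range and the other three above it, at 0.16 ± 0.102 (SE; limma adjusted p = 0.948). With mimic Ogg1 had 5.38, 5.17 and 5.01 in Cre-positive and 5.01, 5.45 and 5.02 in Cre-negative oocytes, at 0.03 ± 0.153 (SE).

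Xrcc1, the scaffold of nick repair, had the lowest difference without mimic. It had 7.97, 8.02, 8.14 and 8.0 in Cre-positive and 8.22, 8.03, 8.2 and 8.37 in Cre-negative oocytes. Cre-negative replicate 2 lay inside the Cre-positive range and the other three above it, at -0.17 ± 0.104 (SE; limma adjusted p = 0.948; exact permutation p = 0.0571). With mimic it had 9.85, 9.92 and 9.85 in Cre-positive and 9.82, 9.98 and 9.85 in Cre-negative oocytes, at -0.01 ± 0.0879 (SE).

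Lig1, the ligase of replication and of long-patch base excision, had 8.55, 8.72 and 8.62 in Cre-positive and 8.92, 8.74 and 8.74 in Cre-negative oocytes with mimic. Every Cre-positive array was lower, at -0.17 ± 0.0968 (SE; limma adjusted p = 0.76; exact permutation p = 0.1). That direction rested on the brightest probe, since the other 3 lay at 0.11, 0.10 and -0.03 with overlap, and the mean over probes gave 0.00. Without mimic it had 6.65, 6.69, 6.59 and 6.22 in Cre-positive and 6.67, 6.48, 6.32 and 6.70 in Cre-negative oocytes, at 0.00 ± 0.125 (SE), the low array being Cre-positive replicate 4. Parp1, which binds nicks and marks them with poly(ADP-ribose), had 9.29, 9.40 and 9.41 in Cre-positive and 9.27, 9.14 and 9.24 in Cre-negative oocytes with mimic, at 0.15 ± 0.0875 (SE; limma adjusted p = 0.765). Its other probes lay at 0.25, with every Cre-positive array higher, and at -0.18, with overlap. Without mimic its Cre-positive arrays ran between 7.05 and 7.88 around the Cre-negative ones, at 0.08 ± 0.156 (SE).

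The remaining genes of the group overlapped in both tables. Apex1, the endonuclease at sites that have lost a base, differed by 0.04 ± 0.105 without and 0.10 ± 0.0891 with mimic (SE). Ung, the uracil glycosylase, differed by -0.10 ± 0.122 and -0.03 ± 0.0814 (SE). Lig3, the ligase that works with XRCC1, differed by 0.13 ± 0.102 and -0.06 ± 0.147 (SE).

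Across the tables, which share no arrays, 12 repair genes lay above 0 in both, 11 below in both and 9 on opposite sides. The same sign was thus seen in 23 of 32 genes (71.9%), against 56.4% of 9109 features. None had groups without overlap in the same direction in both tables, where 0.0988% of features did so higher and 0.406% lower, nor in opposite directions, where 0.0878% did. Mimic and table are the same split, so their parts in a difference between Cre effects cannot be told apart. The difference of the Cre effects, with mimic minus without mimic, was tested as a contrast over all 4 groups. It called 0 of 9109 features in limma, with 414 at an unadjusted p under 0.05 (4.54%), and 0 of the 32 repair genes at either. The contrast lay above 0 for 13 repair genes and below 0 for 19, where 51.4% of all features lay above, with a median of -0.03 against 0.01 over all features.

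The genes that ranked first in this contrast were those already described. The Cre effect was higher with mimic for Xrcc5 by 0.28 ± 0.175, for Rpa2 by 0.18 ± 0.156 and for Xrcc1 by 0.17 ± 0.136 (SE). It was lower with mimic for Palb2, at -0.34 ± 0.184, for Atm, on the probe used with mimic, at -0.34 ± 0.211, and for Prkdc, at -0.31 ± 0.213 (SE). Every one of these intervals included 0, and the widest bound was 0.79 for Atm, a 1.73-fold difference.

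From a list of 107 further DNA repair genes, 90 had a probe, and 80 were tested without mimic and 82 with mimic. None passed in limma in either table. An unadjusted p under 0.05 was reached by 5 without mimic, where 4.67% of all features reached it, and by 9 with mimic, where 7.5% did. Their median difference was 0.01 in each. Without mimic the smallest p values belonged to Mutyh, a glycosylase that acts opposite oxidised guanine (0.32 ± 0.115, SE), and Tdp2, which removes trapped topoisomerase II (0.31 ± 0.119, SE), on the higher side. On the lower side stood Spidr, a scaffold of recombination, at -0.31 ± 0.132 (SE). All of them had a limma adjusted p of 0.948. The DNA polymerase gene Polq, of the error-prone joining of ends, was detected on 0 of 4 Cre-positive and 4 of 4 Cre-negative arrays. It passed the filter only through the Cre-negative group, so the filter itself favoured that direction. Its measured means of 4.32 and 4.48 lay near the detection limit, a difference of -0.17 ± 0.0983 (SE; limma adjusted p = 0.948).

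With mimic Tdp2 was higher on every Cre-positive array, at 0.42 ± 0.0972 (SE; limma adjusted p = 0.408), and so was Ddb1, of the complex that recognises ultraviolet damage, at 0.49 ± 0.116 (SE; limma adjusted p = 0.415). Every Cre-positive array was lower for Polh, a polymerase that copies past damage, at -0.47 ± 0.0930 (SE; limma adjusted p = 0.292), and for Top3a, a topoisomerase that works with BLM, at -0.55 ± 0.167 (SE; limma adjusted p = 0.52). Of all features, 6.36% had every Cre-positive array higher and 6.25% had every one lower. Tdp2, Ddb1, Polh and Top3a were named for their small p, and how many others of the list separated was not counted. Tdp2 was thus on the higher side in both tables, with overlap without mimic, but it was named in each for its small p on that side. Of 9109 features, 56.4% had the same sign in both. In the difference of the Cre effects, 0 of 78 of the further repair genes were called.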

How the data were processed

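Per the labels' protocols, PicoPure-isolated RNA was amplified (Nugen) for Illumina arrays. The authors deposited, per the file headers, raw tables of probe intensity beside its detection p-value, 1 without and 1 with mimic, and normalized tables of log2 signal. The deposited log2 values equalled quantile normalization of the raw log2 intensity within a table, and the deposited series value table equalled them to within 5e-09. For scanner and software, the sources used here give nothing.

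From the raw intensity, background was removed by the nec function (limma 3.58.1, R 4.3.3; negative controls inferred from detection p-values; offset 16). Log2 values were then quantile normalized inside each table. Of 25697 probes, 23978 had 1 gene symbol in the platform annotation while the 1719 with several or none were fitted without a name. Probes were filtered on detection and the brightest probe was kept per gene. Groups were compared with lmFit and eBayes on all features. The procedure was tested on simulated data. Precision is limited by the number of arrays.

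The genes and lists were chosen with earlier results of these data known. Values in every sample were given for genes past the threshold, for the 4 smallest p in each direction in each Cre comparison and the 3 in the difference, and for genes without overlap in both tables, detected in 1 group only, or with probes differing by over 0.5 in log2. Of the other repair genes, the 2 smallest p in each direction were named. Brca1, Brca2, Brip1 and Parp1 were added, chosen after their values were seen. Figures were drawn with matplotlib 3.10.9.

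Replicate numbers were not taken as pairs, and whether they mark pairs of samples is not known. Alternatives were a replicate block, other background, offset, scaling, filter and probe choices, the deposited values, other variance settings and leaving out each array.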

Additional observations from a re-analysis of the deposited data

Results flagged for a closer look

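Rad50, which encodes a part of the complex that holds broken DNA ends, had a log2 signal of 7.38 in Cre-positive replicate 4 without mimic, where the other 3 Cre-positive arrays had 7.20 to 7.23, so that 1 sample lay far from the others of its group. It was 1 of 64 groups of values checked, and chance marks about 1 in 20.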

How the results depend on the processing

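None of the 32 repair genes was called under any of the 21 alternatives without mimic, 19 with mimic and 26 for the difference. Their smallest limma adjusted p was 0.594 (Lig4, without Cre-positive replicate 3), 0.358 (Xrcc5, spread shared by all groups) and 0.793 (Prkdc, without Cre-positive replicate 3 with mimic). The difference kept its sign under all alternatives for 18, 16 and 13 of the 32 genes. Counts over all features moved more. Without mimic the 4 calls became 2 with an offset of 1 or with no filter on dim probes, and the median of the repair genes became 0.056 with an offset of 1 and -0.038 under median scaling. With mimic the 13 calls became 3 with the replicate block, 21 without background correction, under median scaling or with either deposited table, 26 with trend and robust settings and 33 with a spread shared by all groups. Leaving out 1 array gave 2 to 13 calls: 2 without Cre-positive replicate 2 or Cre-negative replicate 1 or 2, 6 without Cre-positive replicate 1 and 7 without Cre-negative replicate 3. The replicate block called no repair gene. In the difference the 0 calls became 3 without background correction, with either deposited table or with array weights, 2 under median scaling or with trend and robust settings, and 1 without the filter. Leaving out 1 array gave 0 to 4 calls, with 1 without Cre-negative replicate 4 of the set without mimic and 4 without Cre-positive replicate 3 of the set with mimic. The cause of these shifts was not tested. Same-numbered arrays deviated together weakly or not at all (correlations of -0.07 to 0.01 without and 0.04 to 0.21 with mimic), so the numbers were not taken as pairs. Dim probes limit what can be seen of Brip1, Msh5, Atm, Mlh3 and Ogg1, and of Prkdc without mimic.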
